A study of Mus musculus with 24 samples.

Results

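Lungs labelled postnatal 2 weeks (day 14, 5 arrays) were compared with lungs labelled postnatal day 7 (5 arrays), over all named genes tested. The 10 arrays were chosen by their age labels and are 10 of 24 in the series, which also holds days 1, 4 and 42. All samples were whole lung of C57BL/6 mice without any treatment in the labels, and each was read on 1 single-colour Cy3 array. The labels call the replicates biological, without saying that each is 1 animal, so p-values measure the spread between these samples. The series title says fetal where the samples are labelled postnatal. The labels give neither sex nor the time of day at which tissue was taken.

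The mouse lung is born with wide saccules, and most of its gas exchange surface forms after birth. During alveolarization, ridges called septa grow into the saccules with myofibroblasts and elastic fibres at their tips. The walls then thin, cell division subsides, and the immune system of the young animal fills out. Days 7 and 14 both fall within this period in the mouse, the earlier within the main wave of septation and the later towards its end.

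A level is the log2 of a probe's processed signal minus the 75th percentile of its array, so that 0 is the level of the probe at that percentile and 1 unit is a doubling. A gene is given by its probe of highest mean. Differences are day 14 minus day 7 from 1 limma fit over all 24 arrays, with standard errors (SE), and a gene was called when its Benjamini-Hochberg adjusted p over 15898 tested genes was under 0.05. The 5 values of an age are listed in the order of replicates 1 to 5. "Well above background", or clearing background, is the scanner software's own flag. Levels of different probes are not set against each other.

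Of 15898 genes, 1840 (11.6%) differed between the ages, 961 higher (6.04%) and 879 lower (5.53%) at day 14 (3635 at an unadjusted p under 0.05). The median difference over all tested genes was 0.02. Of the called genes 588 rose and 593 fell by at least 2-fold, and 44 rose and 40 fell by at least 8-fold. In 1332 of them (72.4%) no day 14 array reached the range of day 7, against 2649 of all 15898 genes (16.7%, of which 8.55% higher and 8.11% lower). Scaling each array to its median in place of the 75th percentile gave 433 higher and 872 lower. That scaling moved the median of all genes to -0.15.

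The 10 arrays lay on 3 slides that each held both ages. Of the called genes 1835 kept their direction within each slide. Since they were called from these same arrays, that count is largely fixed in advance and does not test the slides. On the first principal component, which held 54.7% of the variance, the day 7 arrays lay between -47.09 and -37.06 and day 14 replicates 1 to 4 between 52.25 and 61.61. Day 14 replicate 5 lay at -10.68, between the ages. Among the called genes it was the day 14 array nearest to day 7 in 1630 (88.6%), and its level stood at a median of 31.3% of the way from the day 7 mean to the mean of the other 4. The 5 arrays of other ages that stand apart in this series (day 1 replicates 4 and 5, day 4 replicates 1 and 3, day 42 replicate 4) enter the comparison of day 14 with day 7 only through the shared spread. Without them 6124 genes (38.5%) were called, 3255 higher (20.5%) and 2869 lower (18.0%), among them all 1840. For gene lists, counts in parentheses are those without these 5 arrays. A list count is to be read beside the shares of all tested genes, 6.04% higher and 5.53% lower, or 20.5% and 18.0% without these arrays.

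**Figure D1:**
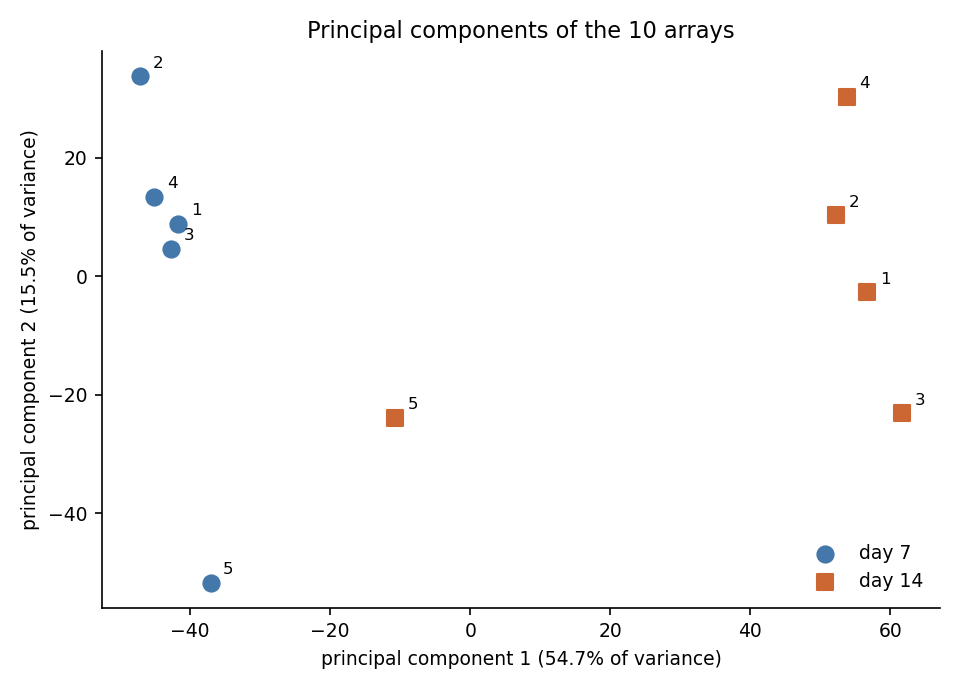
Each point is 1 array, placed by its first and second principal components over all tested genes (axes in component units, with their share of the variance), circles for day 7 and squares for day 14, numbered by replicate. The ages separate along the first component, and day 14 replicate 5 lies at -10.68 between the day 7 arrays and the other 4 of its age.

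Among genes well above background on at least 3 arrays of each age, with groups that did not overlap, the 12 largest falls included growth and matrix genes. Dlk1, an imprinted membrane protein of growing mesenchyme, stood at 2.97, 3.15, 2.82, 2.51 and 3.9 at day 7 and at -1.36, -4.09, -2.18, -3.84 and 0.76 at day 14. All day 14 arrays lay below all day 7 arrays, with a wide spread at day 14, and the fitted fall was 37.1-fold (log2 -5.21, SE 0.74, adjusted p = 6.14e-05). Lrrc15, a leucine-rich repeat membrane protein of mesenchymal cells, went from 1.61, 1.48, 1.59, 1.71 and 1.75 to -4.25, -4.19, -4.21, -4.33 and 0.027. Its 4 lower day 14 arrays fell within 0.14 of each other while replicate 5 stayed far above them, and the fall was 32.4-fold (log2 -5.02, SE 0.58, adjusted p = 1.32e-05). Col25a1, a transmembrane collagen, stood at 0.69, 0.6, 0.48, 0.42 and -0.41 and then at -4.05, -4.67, -3.32, -5.2 and -0.59. Here day 7 replicate 5 lay below its group and day 14 replicate 5 above its own, so that the gap between the ages was 0.18.

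Others of the 12 encode surface and regulatory proteins. Zfp536, a zinc finger repressor, stood at 2.04, 2.18, 2.04, 1.96 and 1.8 at day 7 and -2.53, -2.61, -2.5, -2.35 and 1.18 at day 14. Egfem1, a protein with EGF-like repeats, had 2.05, 2.05, 2.03, 2.12 and 2.22 and then -2.75, -2.5, -2.4, -2.73 and 1.72. Tenm4, a teneurin that acts in cell adhesion, had 4.08, 4.15, 4.15, 4.05 and 4.29 and then -0.021, -0.042, 0.44, 0.057 and 3.61. In each of the 3 genes day 7 was tight, day 14 replicates 1 to 4 were tight and far lower, and replicate 5 lay close under day 7. Their log2 differences were -3.76, -3.82 and -3.33 (adjusted p = 3.54e-05, 9.76e-05 and 0.00035). Kcne1l, an accessory subunit of potassium channels, fell by 3.85 on the log2 scale (adjusted p = 7.15e-05).

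The 12 largest rises, chosen in the same way, included enzymes, transporters and secreted proteins. Inmt, a methyltransferase for indoles that is abundant in adult lung, stood at 2.41, 2.5, 2.03, 2.38 and 2.25 at day 7 and at 7.92, 8.0, 7.81, 7.79 and 4.93 at day 14. Day 14 replicates 1 to 4 agreed within 0.21 and replicate 5 lay between the ages, and the rise was 31.5-fold (log2 4.98, SE 0.53, adjusted p = 6.23e-06). Serpina3n, a secreted inhibitor of serine proteases, went from -6.43, -3.1, -5.79, -5.77 and -4.45 to 0.62, 0.57, 0.78, 0.22 and -2.25. Its day 7 values were scattered near background, well above it on 3 of 5 arrays, and the groups did not overlap (log2 5.1, SE 0.63, adjusted p = 2.13e-05). Slc13a4, a sodium-coupled sulfate transporter, went from -4.09, -4.53, -4.69, -4.49 and -4.03 to 1.52, 1.64, 1.03, 1.1 and -3.65. Day 14 replicate 5 lay 0.39 above the highest day 7 array and the other 4 were over 4 units higher than it, and the fitted rise was 25.9-fold (adjusted p = 5.5e-05).

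Cxcl14, a chemokine made by epithelium and stroma, had -0.018, -0.28, -0.38, 0.2 and -0.033 at day 7 and 4.78, 4.95, 4.86, 4.82 and 1.89 at day 14 (log2 4.36, SE 0.49, adjusted p = 1.24e-05). Gm4956, a predicted gene, had -0.27, -0.28, -0.4, -0.62 and -0.56 and then 4.62, 4.59, 4.29, 4.76 and 0.22 (adjusted p = 4.42e-05). In both genes 4 day 14 arrays were over 4 units above day 7 and replicate 5 was higher than day 7 by far less. Ckmt2, the mitochondrial creatine kinase of muscle, rose by 3.96 (adjusted p = 0.0164), with the widest day 7 spread of these genes (-2.75, -3.75, -3.21, -7.87 and -1.4). The mean level of 21 cardiac muscle genes was likewise scattered, from -1.88 to 0.891 over the day 7 arrays and from -0.626 to 1.7 over those of day 14, and its part in the Ckmt2 difference was not tested. The call was lost without day 14 replicate 3 (3.51, adjusted p = 0.0582), without day 7 replicate 4 (2.94, adjusted p = 0.0592) and with the level of the X-inactivation transcript Xist as a covariate (2.97, adjusted p = 0.085, without the 5 arrays).

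**Figure D2:**
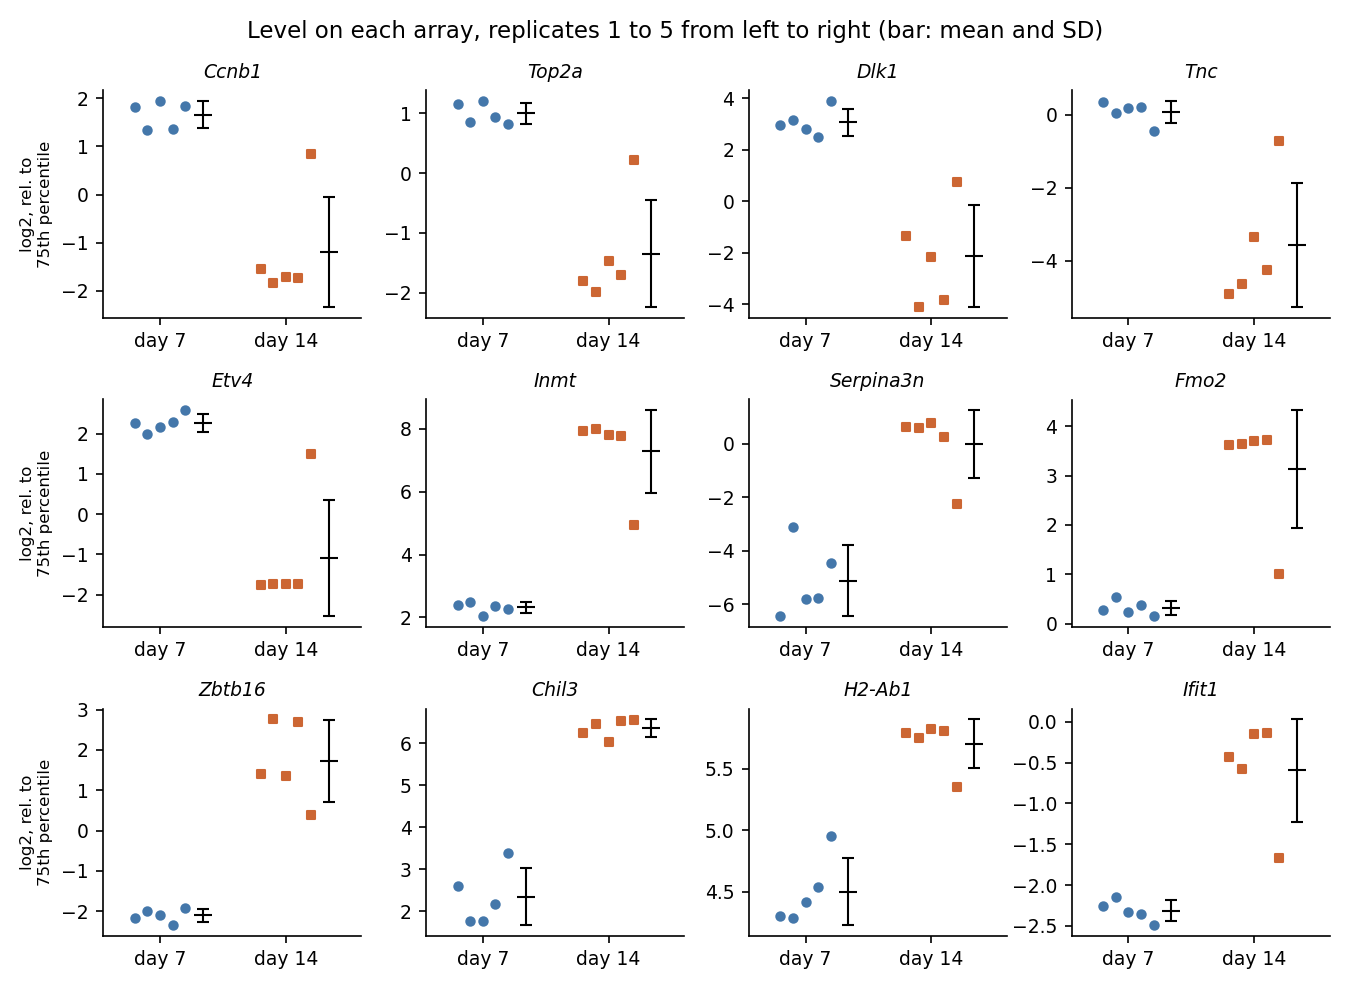
Each panel shows 1 gene, with its log2 level relative to the array's 75th percentile on the vertical axis, for the 5 day 7 arrays (circles) and the 5 day 14 arrays (squares), replicates 1 to 5 from left to right; the bar is the mean with its SD. Axes differ between panels. In most panels day 14 replicate 5 lies between the ages, whereas for Chil3 it is the highest of the 10 arrays.

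Some genes were called although their probe was well above background on 0 arrays of one age. This held for 110 called genes, 90 dim at day 7 and 20 dim at day 14. Their size is a bound, the bright group's mean against the lowest well-above-background signal on each array of the dim group or the probe's own signal if that was higher. Prmt8, an arginine methyltransferase best known from brain, was at least 17.5-fold higher at day 14. Its day 14 levels were -2.22, -1.71, -1.62, -1.76 and -5.15. The meiosis gene Tex11 and the doublecortin-like kinase Dclk3 were at least 16.6-fold and 16.2-fold higher. Chrdl1, a secreted antagonist of bone morphogenetic proteins (BMPs), was at least 11-fold higher and Hpcal4, a neuronal-type calcium sensor, at least 9.83-fold. In the other direction Ncapg, a condensin subunit, was at least 4.54-fold lower, with replicate 5 at the edge of the day 7 range, and Brip1, a DNA repair helicase, at least 3.28-fold lower.

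Genes of cell division fell together. Dividing cells copy their DNA with the Mcm helicase, polymerases and nucleotide-making enzymes, and then separate chromosomes with cyclin-dependent kinases, the Aurora kinases and the kinetochore. Of 34 mitosis and kinetochore genes tested, 31 were lower, 0 higher and 3 did not pass (34 lower without the 5 arrays), with a median difference of -2.13. Of 30 DNA replication genes, 21 were lower, 0 higher and 9 did not pass (29 lower without the 5 arrays), median -1.11. In whole lung, fewer dividing cells and less of these transcripts per cell cannot be told apart. The mean level of the 34 mitosis genes ran from 0.319 to 0.669 over the day 7 arrays, from -2.08 to -1.58 over day 14 replicates 1 to 4, and was -0.254 on replicate 5.

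Ccnb1, cyclin B of mitotic entry, stood at 1.82, 1.34, 1.95, 1.36 and 1.83 at day 7 and -1.54, -1.84, -1.72, -1.74 and 0.85 at day 14 (log2 -2.86, SE 0.35, adjusted p = 2.1e-05). Top2a, the topoisomerase that untangles DNA, had 1.16, 0.86, 1.21, 0.93 and 0.83 and then -1.8, -1.99, -1.47, -1.7 and 0.22 (log2 -2.35, adjusted p = 0.000281). Rrm2, the regulated subunit of ribonucleotide reductase, had 3.24, 3.06, 3.28, 3.11 and 3.42 and then 0.7, 0.48, 0.63, 0.56 and 2.52 (log2 -2.24, adjusted p = 1.87e-05). In each of the 3 genes day 14 replicates 1 to 4 lay over 2 units under the lowest day 7 array, and replicate 5 lay 0.49, 0.61 and 0.53 under it in turn. Aurkb, a kinase of chromosome segregation, cleared background on all day 7 arrays but on 1 day 14 array, so its fitted difference of -3.16 (adjusted p = 1.96e-05) rests on background signal on the other 4. Ticrr, which starts replication forks, had 1 of the 6 smallest p-values among falls, with -0.43, -0.66, -0.45, -0.68 and -0.4 at day 7 and -3.61, -3.86, -3.31, -3.47 and -1.56 at day 14 (log2 -2.64, SE 0.28, adjusted p = 6.23e-06). Pimreg, a mitotic protein, was among the 12 largest falls (log2 -3.27, adjusted p = 0.000151).

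Of 15 DNA methylation and Polycomb enzymes 2 fell, 1 rose and 12 did not pass (6 lower and 2 higher without the 5 arrays). Uhrf1, which carries DNA methylation onto new strands, had 1.95, 1.78, 1.85, 1.76 and 2.38 at day 7 and -0.6, -0.8, -0.45, -0.87 and 1.26 at day 14 (log2 -2.24, adjusted p = 0.000496). Ezh2, the Polycomb methyltransferase, fell by 1.21 (adjusted p = 0.0234). Of 13 genes that inhibit the cell cycle 0 were called in either direction by limma (2 at an unadjusted p under 0.05; 1 higher and 2 lower without the 5 arrays). The largest difference among them was that of Btg2, an antiproliferative gene, at 0.79 (adjusted p = 0.0804).

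The promoters of the cell division genes are shown because their members moved together and carry known elements of cell cycle control. Late cell cycle genes are repressed in resting cells through an element called CHR, with the letters TTTGAA, and genes of replication answer to E2F factors, 1 of whose sites reads TTTCGCGC. In windows of 250 bases before to 50 after each RefSeq start (GRCm38.p6), searched on both strands, TTTGAA was found for 17 of 24 called mitosis genes with a window, 18 of 27 tested ones, and 20.2% of all 27025 genes. Of the called replication genes 3 of 17 had it. TTTCGCGC was found for 4 of 17 called replication genes, 1 of 24 called mitosis genes and 0.374% of all genes. The CCAAT box, CCAAT, was found for 18 of 24, 11 of 17 and 41.1% of all genes in turn. The form TTTAAA was found for 8 of 24, 3 of 17 and 14.9%, and a further E2F form, TTCCCGCC, for 1 of 24, 4 of 17 and 2.52%. A match is a description of these letters only.

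Printed here are the called members with the largest falls whose window holds the element before the start site. Genes of a chromosome were left out of this choice, so a larger fall may have been passed over. Sequences run 5′ to 3′ along the gene's strand, with every match of the element in capitals (TTTGAA or its reverse complement TTCAAA in the first 3, TTTCGCGC or GCGCGAAA in the next 3).
Cdk1, chr10:69352913-69352983, - strand: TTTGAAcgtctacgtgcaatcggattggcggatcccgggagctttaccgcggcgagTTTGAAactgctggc
Prc1, chr7:80294391-80294475, + strand: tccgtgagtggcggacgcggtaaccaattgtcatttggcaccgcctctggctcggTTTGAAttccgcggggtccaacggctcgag
Kif2c, chr4:117178815-117178930, - strand: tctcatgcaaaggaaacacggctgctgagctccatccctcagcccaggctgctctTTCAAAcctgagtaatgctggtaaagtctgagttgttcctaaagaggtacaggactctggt
Orc1, chr4:108579372-108579453, + strand: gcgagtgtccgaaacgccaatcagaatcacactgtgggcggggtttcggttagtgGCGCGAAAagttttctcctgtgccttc
Mcm5, chr8:75109301-75109418, + strand: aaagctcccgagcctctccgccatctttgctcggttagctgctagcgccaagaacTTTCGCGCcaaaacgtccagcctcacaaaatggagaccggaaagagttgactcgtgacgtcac
Rfc3, chr5:151651209-151651273, - strand: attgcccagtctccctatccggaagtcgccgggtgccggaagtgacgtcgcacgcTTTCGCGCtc
Cdk1, the kinase of mitotic entry, fell by 2.87 (adjusted p = 2.86e-05), by its probe of highest mean, and of its 3 tested probes 2 fell and 1 rose. Prc1, a bundler of spindle microtubules, fell by 2.54 (adjusted p = 2.3e-05), and Kif2c, a kinesin that shortens microtubules, by 2.35 (adjusted p = 0.00012). Orc1 of the origin recognition complex fell by 2.61 (adjusted p = 4.83e-05) and cleared background on 1 of its day 14 arrays. Mcm5 of the replicative helicase fell by 1.73 (adjusted p = 0.00454) and Rfc3 of the clamp loader by 1.11 (adjusted p = 0.00213). Prc1, Kif2c, Mcm5 and Rfc3 were chosen for their promoters after their values were seen.

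Imprinted growth genes are read from 1 parental copy and are high in growing young tissue. Of 20 tested, 10 were lower, 0 higher and 10 did not pass (14 lower without the 5 arrays), median -0.91. Mest, a marker of the paternal copy, stood at 4.73, 4.74, 4.52, 4.68 and 4.85 at day 7 and 1.94, 1.92, 1.5, 1.67 and 3.78 at day 14 (log2 -2.54, SE 0.29, adjusted p = 1.14e-05). Magel2, of the Prader-Willi region, had -2.4, -2.44, -2.52, -2.77 and -2.25 and then -4.32, -4.4, -4.91, -4.36 and -4.25 (log2 -1.97, SE 0.2, adjusted p = 6.23e-06). For Magel2 replicate 5 was with the other day 14 arrays, unlike for Mest, where it lay nearer to day 7. Nnat, a small membrane protein, fell by 1.99 (adjusted p = 0.00251). Among the binding proteins of insulin-like growth factors, Igfbp6 rose by 2.04 and Igfbp3 by 1.81 while Igfbp4 fell by 1.17 (adjusted p = 0.00202, 0.000153 and 0.0307).

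Some genes of the growing matrix fell, while most members of the matrix lists did not pass the test. The provisional matrix that migrating cells lay down is rich in tenascin, versican and thrombospondins. Tnc, tenascin C, stood at 0.35, 0.046, 0.19, 0.21 and -0.45 at day 7 and -4.92, -4.63, -3.35, -4.27 and -0.71 at day 14 (log2 -3.64, SE 0.49, adjusted p = 3.87e-05). Vcan, the proteoglycan versican, had 2.92, 2.86, 2.78, 2.68 and 2.47 and then -1.05, -1.25, -1.32, -0.81 and 1.7 (log2 -3.29, adjusted p = 4.13e-05). Replicate 5 again lay closest to day 7, in Tnc with a gap of 0.26. Of 18 genes of this list 4 fell, 1 rose and 13 did not pass (9 lower and 3 higher without the 5 arrays), median -0.36. Thbs2 fell by 2.83 (adjusted p = 0.00158) with overlapping groups, since replicate 5 (-2.98, -2.96, -2.82, -3.26 and 0.61 at day 14 in replicate order) lay within day 7. Spp1, osteopontin, was the member that rose (2.34, adjusted p = 0.002).

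Of 21 elastic fibre genes 5 fell, 2 rose and 14 did not pass (13 lower and 5 higher without the 5 arrays), median -0.56. Fbn2, the fibrillin of growing tissue, stood at 1.9, 2.12, 2.19, 2.22 and 2.21 at day 7 and -1.58, -1.64, -1.77, -1.9 and 1.28 at day 14 (log2 -3.25, SE 0.4, adjusted p = 2.18e-05). Loxl2, a crosslinking oxidase, fell by 1.72 (adjusted p = 0.000399), while Efemp1, a fibulin, rose by 1.09 (adjusted p = 0.000107) with all day 14 arrays above all day 7 arrays. Of 19 fibrillar collagen and collagen-processing genes 6 fell and 2 rose (9 and 3 without the 5 arrays). They included Col5a1 (-1.08), a nucleator of collagen fibrils, and the enhancer of procollagen cleavage Pcolce2 (1.57), with adjusted p = 0.0177 and 0.000233. Of 21 basement membrane genes 3 fell, 1 rose and 17 did not pass (8 lower and 6 higher without the 5 arrays). Lama1, the laminin chain of early epithelium, had the largest fall (log2 -1.59, adjusted p = 0.00065).

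Of 23 matrix protease and inhibitor genes 3 were higher and 2 lower (5 and 5 without the 5 arrays). Over all tested genes 6.04% were higher and 5.53% lower (20.5% and 18.0% without the 5 arrays), so this list lay near the general share. Mmp3, stromelysin, stood at -3.63, -4.9, -4.39, -4.58 and -3.19 at day 7 and 0.4, 0.44, 0.64, 0.47 and -1.34 at day 14 (log2 4.26, SE 0.46, adjusted p = 6.23e-06). Mmp12, the elastase of macrophages, cleared background on 1 day 7 array and all of day 14, and rose by 1.66 (adjusted p = 0.00322). Adamts4, an aggrecanase that also cuts versican, went from -0.23, -0.3, -0.24, -0.31 and -0.16 to -4.36, -4.69, -4.83, -4.8 and -0.87. Day 7 agreed within 0.15, while day 14 replicate 5 stood 3.49 above the nearest of the other 4 (log2 -3.66, SE 0.53, adjusted p = 7.32e-05). Mmp14, a membrane collagenase, fell by 1.28 (adjusted p = 0.0024).

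Of 18 smooth muscle and myofibroblast genes 5 fell, 1 rose and 12 did not pass (11 lower and 1 higher without the 5 arrays), median -0.72. Tgfbi, an adhesion protein induced by transforming growth factor beta (TGF-beta), stood at 6.97, 6.99, 7.11, 7.09 and 7.22 at day 7 and 3.64, 3.65, 3.66, 3.66 and 6.55 at day 14. The first 4 day 14 arrays agreed within 0.024, and replicate 5 lay 0.42 under the lowest day 7 array (log2 -2.85, SE 0.45, adjusted p = 0.000176). Acta2, smooth muscle actin, fell by 1.42 (adjusted p = 0.0223) with overlapping groups. Fgf18, a growth factor of septal myofibroblasts, fell by 1.4 (adjusted p = 0.00403). Pdgfra, the receptor that marks their precursors and alveolar fibroblasts, rose by 1.0 (adjusted p = 0.00154), also with overlapping groups. Among adventitial fibroblast genes 3 of 12 rose and 3 fell (5 and 5 without the 5 arrays), with the scavenger receptor Scara5 at 2.32 and endosialin, Cd248, at -2.31 (adjusted p = 3.33e-05 and 0.00161).

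In the pathways that shape the lung single ligands and targets fell, and most members did not pass the test. Fibroblast growth factor (FGF) signalling induces the transcription factor Etv4, which stood at 2.27, 2.0, 2.17, 2.29 and 2.59 at day 7 and -1.77, -1.74, -1.74, -1.73 and 1.48 at day 14. Day 14 replicates 1 to 4 agreed within 0.042, and replicate 5 lay 0.52 under the lowest day 7 array (log2 -3.36, SE 0.51, adjusted p = 0.000133). Fgf9, a ligand of mesothelium and epithelium, fell by 1.85 (adjusted p = 0.00872) with overlapping groups, and 3 of 20 members of the list fell and 1 rose (6 and 3 without the 5 arrays). Hedgehog signals pass from epithelium to mesenchyme, and 4 of 17 members fell and 1 rose (7 and 3 without the 5 arrays). The ligand Shh had 0.12, -0.12, -0.36, 0.25 and -0.31 and then -1.62, -1.83, -1.81, -1.96 and -0.68 (log2 -1.49, SE 0.22, adjusted p = 8.76e-05). Its target and effector Gli1 had 3.35, 3.23, 3.35, 3.14 and 3.43 and then 1.85, 2.04, 1.65, 2.03 and 2.44 (log2 -1.3, adjusted p = 0.000727), and Gli3 and Foxl1 fell by 1.54 and 1.43 (adjusted p = 0.000179 and 0.00726).

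In the Wnt pathway 10 of 37 members fell and 3 rose (16 and 5 without the 5 arrays), median -0.22. Rspo2, which strengthens Wnt signals, went from 0.089, 0.095, -0.13, 0.19 and -0.14 to -2.42, -2.56, -2.46, -2.66 and -0.79 (log2 -2.2, SE 0.37, adjusted p = 0.000281). Wif1, a secreted Wnt inhibitor, went from 0.93, 1.09, 0.71, 1.15 and 0.89 to -0.71, -1.21, -1.68, -1.62 and 0.23 (log2 -1.95, adjusted p = 4.12e-05), an inhibitor that fell beside an agonist. Ligands Wnt11 and Wnt5a fell by 2.08 and 1.73 (adjusted p = 0.00354 and 0.00025), both with overlapping groups, and Ccn5, a matricellular protein, rose by 2.08 (adjusted p = 0.00127). Among BMP and Id genes 6 of 24 fell and 3 rose (8 and 8 without the 5 arrays). The BMP antagonist Grem1 cleared background on all day 7 arrays and 1 of day 14, that of replicate 5. Its fitted difference of -3.83 (adjusted p = 0.000233) thus rests on background signal on the other 4. Of 17 TGF-beta genes 4 fell and 0 rose (4 lower and 4 higher without the 5 arrays), with the ligand Tgfb2 at -1.26 (adjusted p = 0.00057). Of 16 Notch genes 1 fell, Dlk1, and 0 rose (2 lower and 2 higher without the 5 arrays).

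Retinoic acid, made from vitamin A, is needed for septation, and retinoid genes moved both ways with 4 of 18 higher and 2 lower (5 and 4 without the 5 arrays). Lrat, which stores retinol as ester, stood at -3.9, -3.48, -3.83, -3.52 and -4.09 at day 7 and 0.7, 0.42, 0.68, 0.34 and -2.6 at day 14 (log2 3.67, SE 0.72, adjusted p = 0.00125). The retinoic acid-degrading Cyp26b1 rose by 1.56 and the alcohol dehydrogenase Adh1 fell by 1.11 (adjusted p = 0.0105 and 0.0277). Transcription factors of the Hox clusters and of lung lineages were lower in 8 of 30 and higher in 0 (18 lower without the 5 arrays), median -0.43. Besides the cell cycle factor Foxm1 (-2.14) these included the progenitor factors Mycn (-1.34), Sox9 (-1.17) and Sox4 (-1.17), with adjusted p = 0.000306, 0.00154, 0.00511 and 0.000646. Among axon guidance genes, which also steer vessels and epithelium, 6 of 33 fell and 1 rose (10 and 4 without the 5 arrays). The receptor Robo1 went from 2.73, 2.82, 2.77, 2.56 and 2.54 to 1.14, 1.17, 0.81, 1.27 and 2.16 (log2 -1.37, adjusted p = 4.83e-05), and its ligand Slit2 fell by 1.28 (adjusted p = 0.00019).

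**Figure D3:**
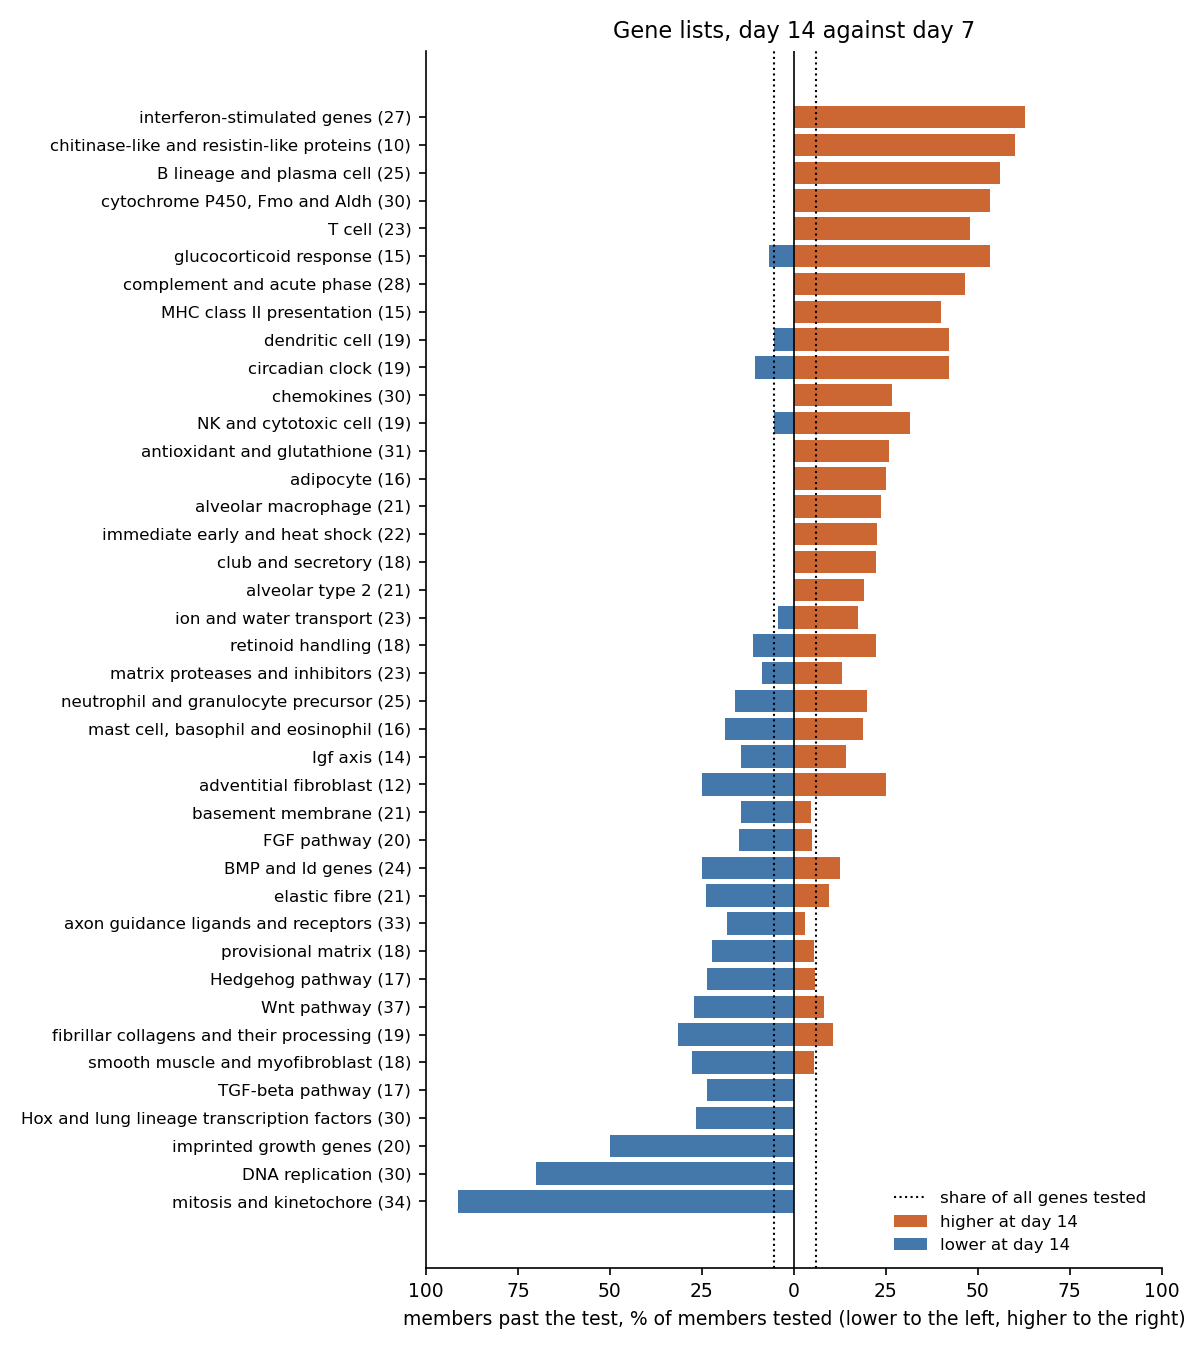
Bars give the share of each list's tested members (number in parentheses) past the limma test, higher at day 14 to the right and lower to the left, for the lists with 4 or more called members; the horizontal axis is in percent, and dotted lines mark the same share over all 15898 genes, 6.04% higher and 5.53% lower. Cell division lists lie at the bottom with 31 of 34 and 21 of 30 members lower, and interferon-stimulated genes at the top with 17 of 27 higher.

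A minority of epithelial markers rose, and most did not pass the test. The flat alveolar type 1 cells carry gas exchange and the cuboidal type 2 cells make surfactant. Of 21 type 2 genes 4 rose and 0 fell (11 higher without the 5 arrays), median 0.39, and of 19 type 1 genes 3 rose and 0 fell (13 higher without them), median 0.40. Sftpa1, surfactant protein A, stood at 6.06, 6.02, 6.14, 6.12 and 6.63 at day 7 and 7.45, 7.53, 7.37, 7.42 and 6.87 at day 14 (log2 1.13, SE 0.35, adjusted p = 0.0355). Hopx, a type 1 transcriptional cofactor, had 4.38, 4.44, 4.3, 4.56 and 4.55 and then 5.7, 5.6, 5.64, 5.34 and 4.68 (log2 0.94, adjusted p = 0.00246). In both genes the groups did not overlap, and replicate 5 of day 14 was 0.23 and 0.12 over the highest day 7 array. Of 18 club and secretory genes 4 rose and 0 fell (10 higher without the 5 arrays), median 1.02. Scgb1a1, the main club cell protein, rose by 0.89 (adjusted p = 0.0323).

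With each array scaled to its median, Sftpa1, Hopx and Scgb1a1 no longer passed. Of 14 basal and neuroendocrine genes 0 passed the limma test (1 at an unadjusted p under 0.05, 1 higher without the 5 arrays). Of 19 ciliated cell genes 1 rose and 0 fell (11 higher without the 5 arrays), and of 24 capillary and pan-endothelial genes 1 rose, the receptor phosphatase Ptprb (0.73, adjusted p = 0.0183), with 10 higher and 1 lower without the 5 arrays. Their medians were 0.53 and 0.18. Rprml of the aerocyte capillary list rose by 1.97 (adjusted p = 0.00146). Of 23 ion and water transport genes 4 rose and 1 fell (10 and 3 without the 5 arrays), among them the sodium channel subunit Scnn1a (1.18, adjusted p = 0.0272) and the sodium pump subunit Atp1b1 (1.14, adjusted p = 0.000211), which clear fluid from the airspace.

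Genes that process foreign and oxidised molecules rose. Of 30 genes of the cytochrome P450, flavin monooxygenase (Fmo) and aldehyde oxidation list 16 were higher, 0 lower and 14 did not pass (26 higher without the 5 arrays), median 1.06. Fmo2, the main lung enzyme of its family, stood at 0.28, 0.53, 0.24, 0.38 and 0.15 at day 7 and 3.61, 3.65, 3.69, 3.73 and 1.0 at day 14, with replicate 5 0.47 above the highest day 7 array (log2 2.82, SE 0.47, adjusted p = 0.000264). Cyp2b10, a P450 found in type 1 cells, had 1.13, 0.9, 1.16, 0.58 and 1.8 and then 4.91, 4.88, 4.6, 4.94 and 2.17 (log2 3.18, SE 0.45, adjusted p = 6.22e-05). Cyp1a1, the target of the aryl hydrocarbon receptor, went from -5.03, -5.52, -5.52, -5.45 and -5.3 to 1.38, 0.076, -0.53, 0.8 and -5.45, with replicate 5 of day 14 within the day 7 range (log2 4.62, adjusted p = 0.000387). Aox3, an aldehyde oxidase, had 1 of the 6 smallest p-values among rises, with -1.5, -1.42, -1.57, -1.7 and -1.43 and then 0.9, 0.83, 1.14, 0.97 and -0.51 (log2 2.19, SE 0.23, adjusted p = 6.23e-06).

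Of 31 antioxidant and glutathione genes 8 rose and 0 fell (16 higher and 3 lower without the 5 arrays), median 0.34. Gpx3, the secreted glutathione peroxidase, stood at 0.81, 0.36, 0.67, 1.07 and 1.4 at day 7 and 4.63, 4.59, 5.02, 4.3 and 2.2 at day 14 (log2 3.29, SE 0.47, adjusted p = 6.11e-05). Sod3, the extracellular superoxide dismutase, had 2.77, 2.79, 2.89, 3.12 and 3.23 and then 5.32, 5.45, 5.35, 5.25 and 4.32 (log2 2.18, adjusted p = 0.000403). For Sod3 replicate 5 lay midway between the ages. Among lipid genes Slc27a6, a fatty acid transport protein, fell with 1 of the 6 smallest p-values, from 1.79, 1.72, 1.49, 1.77 and 1.67 to -1.47, -1.28, -1.56, -1.69 and 0.63 (log2 -2.76, SE 0.3, adjusted p = 6.9e-06). Of 28 lipid synthesis, storage and uptake genes 3 rose and 0 fell (8 higher without the 5 arrays), and of 24 cholesterol synthesis genes 1 rose and 0 fell (2 higher and 1 lower without them). In the prostanoid and vessel tone list 2 of 29 rose and 1 fell (15 and 6 without the 5 arrays), with the prostaglandin F receptor Ptgfr at 2.7 (adjusted p = 1.32e-05). Egln3, an oxygen-sensing hydroxylase, fell by 2.87 (adjusted p = 0.000139), while 2 other members of the 18 hypoxia response genes rose (7 higher and 1 lower without the 5 arrays).

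Interferon-stimulated genes, which cells switch on in answer to interferons, rose in 17 of 27 cases and fell in 0 (25 higher without the 5 arrays), median 1.11. Ifit3 stood at 0.45, 0.33, 0.47, 0.39 and 0.39 at day 7 and 2.72, 2.63, 2.63, 2.81 and 1.11 at day 14 (log2 1.98, SE 0.25, adjusted p = 2.68e-05). The related Ifit1 had -2.25, -2.14, -2.33, -2.36 and -2.49 and then -0.43, -0.58, -0.15, -0.14 and -1.67 (log2 1.72, SE 0.43, adjusted p = 0.0088). Both belong to a family whose proteins bind foreign RNA. Day 7 agreed within 0.14 and 0.35, and day 14 replicate 5 lay 0.64 and 0.47 above its highest array, under the other 4. Oas2, which makes a signal that activates RNA cleavage, rose by 1.57 (adjusted p = 0.000341) and the mitochondrial protein Ifi27l2a by 1.78 (adjusted p = 0.00266).

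Their promoters are shown because interferon acts through an element that reads GAAA, any 2 bases and GAAA again, bound by complexes of Stat and Irf proteins. It was found for 9 of 13 called members with a window, 13 of 21 tested ones, and 3.99% of all 27025 genes. The 3 called members with the largest rises that hold it before the start site are printed, with the same chromosome left out of the choice. Sequences run 5′ to 3′ along the gene's strand, with every match on either strand in capitals.
Ifit3, chr19:34583352-34583471, + strand: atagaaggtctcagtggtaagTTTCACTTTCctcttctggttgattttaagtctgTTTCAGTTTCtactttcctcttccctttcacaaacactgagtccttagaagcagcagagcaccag
Ifit1, chr19:34640749-34640868, + strand: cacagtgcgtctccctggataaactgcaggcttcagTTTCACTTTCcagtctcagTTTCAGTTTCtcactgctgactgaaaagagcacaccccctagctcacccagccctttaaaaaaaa
Oas3, chr5:120777670-120777789, - strand: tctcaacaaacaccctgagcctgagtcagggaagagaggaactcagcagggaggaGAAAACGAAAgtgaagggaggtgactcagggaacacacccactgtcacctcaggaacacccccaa
Ifit3 and Ifit1 each hold 2 matches in the printed stretch, and Oas3, an oligoadenylate synthetase that rose by 1.54 (adjusted p = 0.0158), holds 1. Day 14 replicate 5 lay within the day 7 range of Oas3.

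Many markers of lymphocytes and of antigen presentation rose. Of 25 B lineage and plasma cell genes 14 rose and 0 fell (17 higher without the 5 arrays), median 1.33. Cr2, the complement receptor of mature B cells, stood at -2.94, -2.8, -2.93, -3.45 and -3.77 at day 7 and -0.92, -1.01, -1.2, -0.66 and -2.78 at day 14 (log2 1.86, SE 0.51, adjusted p = 0.0162). Jchain, which joins secreted antibodies, cleared background on 0 day 7 and 5 day 14 arrays and was at least 4.51-fold higher (adjusted p = 0.0377). Of 23 T cell genes 11 rose and 0 fell (21 higher and 1 lower without the 5 arrays), median 0.97. Cd8b1, a coreceptor chain of cytotoxic T cells, had -3.17, -3.13, -3.2, -3.0 and -2.83 and then -1.76, -1.63, -1.21, -1.56 and -2.67 (log2 1.3, adjusted p = 0.0169). Among 19 natural killer (NK) and cytotoxic cell genes 6 rose and 1 fell (16 and 1 without the 5 arrays), the latter being the protease gene Cma1, better known from mast cells. The NK receptor genes Klra8 and Klra4 rose by 3.82 and 3.48 (adjusted p = 5.92e-05 and 0.000751); they are close relatives, and cross-hybridisation between relatives was not tested.

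Of 15 genes of major histocompatibility complex (MHC) class II presentation 6 rose and 0 fell (14 higher without the 5 arrays), median 0.82. H2-Ab1, a class II chain, stood at 4.3, 4.29, 4.42, 4.54 and 4.96 at day 7 and 5.79, 5.75, 5.82, 5.81 and 5.35 at day 14 (log2 1.21, SE 0.38, adjusted p = 0.0402). Day 7 replicate 5 was the highest of its age and day 14 replicate 5 the lowest of its own, 0.39 above. Of 19 dendritic cell genes 8 rose and 1 fell (12 and 2 without the 5 arrays), median 0.86. Cd209a, a lectin receptor of dendritic cells, had -2.93, -2.93, -3.19, -3.19 and -2.81 and then -0.26, -0.17, -0.057, -0.075 and -1.75 (log2 2.55, SE 0.26, adjusted p = 4.83e-06). Fscn1, an actin bundler, was the member that fell (-1.47, adjusted p = 0.011). Of 30 chemokine genes 8 rose and 0 fell (14 and 1 without the 5 arrays).

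Chitinase-like genes, which macrophages and airway cells secrete in type 2 responses, rose in another pattern over the arrays. Chil3 stood at 2.59, 1.77, 1.77, 2.17 and 3.4 at day 7 and 6.25, 6.46, 6.03, 6.53 and 6.54 at day 14 (log2 4.02, SE 0.34, adjusted p = 9.96e-07), the smallest p of all genes tested. Its near relative Chil4 had -4.33, -4.15, -4.79, -4.98 and -2.85 and then -0.77, -0.66, 1.12, -0.51 and 2.16 (log2 4.49, SE 0.56, adjusted p = 2.18e-05). Chia1, an active chitinase, had 1.64, 1.88, 1.24, 1.92 and 2.08 and then 3.25, 3.35, 3.17, 3.53 and 3.65 (log2 1.64, adjusted p = 0.00754). In these 3 genes replicate 5 was the highest array of its age, both at day 7 and, in contrast to most called genes, at day 14. Of the 10 chitinase-like and resistin-like genes 6 rose and 0 fell (8 higher without the 5 arrays), median 1.33. Day 14 replicate 5 lay past the other 4, away from day 7, in 23 of 1840 called genes, and these also included Ccl17, a chemokine of type 2 responses (-2.68, -2.69, -2.57, -2.29 and -1.43 at day 7 and -1.11, -0.71, -0.58, -0.75 and 0.12 at day 14, adjusted p = 0.00171).

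Of 21 alveolar macrophage genes 5 rose and 0 fell (13 higher without the 5 arrays), median 0.71, while 0 of 20 monocyte and interstitial macrophage genes passed the limma test (6 at an unadjusted p under 0.05, 11 higher without the 5 arrays). In the latter list the largest differences were those of the folate receptor Folr2 (1.22, adjusted p = 0.0646) and of Spn (0.94, adjusted p = 0.106). Siglecf, a lectin of alveolar macrophages and eosinophils, rose by 0.81 (adjusted p = 0.00789). Of 28 complement and acute phase genes 13 rose and 0 fell (20 higher without the 5 arrays), median 0.93. C4b, a component of the classical pathway, stood at 1.94, 2.55, 2.23, 2.39 and 2.31 at day 7 and 4.18, 3.72, 5.39, 4.3 and 3.29 at day 14 (log2 1.89, adjusted p = 0.000356).

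Granulocyte lists moved in both directions. Of 16 mast cell, basophil and eosinophil genes 3 fell and 3 rose (5 and 6 without the 5 arrays). The mast cell proteases Mcpt4 and Cma1 fell by 2.77 and 1.98 and the basophil protease Mcpt8 by 2.51 (adjusted p = 0.00065, 0.000842 and 0.00148). Mcpt4 stood at -1.84, -2.13, -1.72, -1.18 and -0.86 at day 7 and -4.16, -5.23, -3.7, -5.36 and -3.11 at day 14, with no overlap. Of 25 neutrophil and granulocyte precursor genes 4 fell and 5 rose (5 and 7 without the 5 arrays). The 4 that fell were all stefin A genes, protease inhibitors that are near copies of each other, so their probes may share transcripts, which was not tested. Stfa1 had 2.99, 2.78, 2.93, 2.6 and 2.87 at day 7 and -0.18, 0.00, -0.47, 0.096 and 3.1 at day 14, with replicate 5 above all day 7 arrays and the other 4 far below (log2 -2.32, adjusted p = 0.00154).

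Glucocorticoid-responsive genes rose. Glucocorticoids, the steroids of the adrenal cortex, act through a nuclear receptor and promote maturation of the lung. Of 15 genes of the list 8 rose and 1 fell (9 and 1 without the 5 arrays), median 0.85. The member that fell was Hsd11b2, which inactivates the hormone (-1.29, adjusted p = 0.0422), named after its value was seen. Zbtb16, a transcription factor that steroids induce, stood at -2.16, -2.0, -2.08, -2.35 and -1.93 at day 7 and 1.42, 2.77, 1.35, 2.7 and 0.4 at day 14 (log2 3.83, SE 0.35, adjusted p = 1.42e-06). Tsc22d3, the glucocorticoid-induced leucine zipper, had 4.02, 4.15, 4.2, 3.93 and 4.46 and then 5.99, 6.19, 5.87, 6.18 and 4.55 (log2 1.6, adjusted p = 0.000687). Klf9, another steroid target, had 0.18, 0.32, 0.15, 0.58 and 0.064 and then 2.76, 2.83, 2.61, 2.95 and 0.99 (log2 2.17, adjusted p = 0.000389). Hsd11b1, which makes active hormone from its inert form inside cells, rose by 1.73 (adjusted p = 0.000154). The steroid response element reads GAACA, any 3 bases and TGTTC (both strands searched). It was found for 0 of 7 called members with a window, 1 of 12 tested ones, and 0.0555% of all genes. So few windows cannot tell whether the list differs from all genes.

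Clock genes shifted as well, in both directions. The clock runs on the activators Arntl and its partners, which drive Per, Dbp and Nr1d1, and each of these peaks at its own time of day. Of 19 members 8 rose and 2 fell (13 and 2 without the 5 arrays). Dbp stood at 2.12, 2.37, 2.51, 2.61 and 2.68 at day 7 and 4.94, 4.98, 4.46, 4.67 and 3.05 at day 14 (log2 1.96, adjusted p = 0.00211), and Nr1d1 had -2.55, -2.5, -2.09, -1.77 and -2.05 and then 0.15, 0.14, 0.15, -0.14 and -1.4 (log2 1.97, adjusted p = 0.000638). Per1 had 3.61, 3.68, 3.8, 3.55 and 4.11 and then 5.81, 5.97, 5.58, 6.12 and 3.63 (log2 1.67, adjusted p = 0.00879). Arntl went the other way, from 0.21, 0.077, 0.14, 0.43 and 0.22 to -1.34, -1.44, -1.22, -1.55 and 0.33 (log2 -1.26, adjusted p = 0.00324). For Per1 and Arntl replicate 5 of day 14 lay within the day 7 range. The time of day of sampling is not in the labels, and its part in these differences was not tested. Arntl's complex binds the E-box CACGTG. This element was found for 2 of 8 called members with a window, 5 of 16 tested ones, and 8.09% of all genes.

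Of 22 immediate early and heat shock genes 5 rose and 0 fell (10 higher without the 5 arrays). Hspa1a, an inducible chaperone, had -1.3, -1.32, -1.14, -1.4 and -0.76 at day 7 and 1.18, 1.74, 1.25, 1.12 and -0.79 at day 14 (log2 2.08, adjusted p = 0.0126), with replicate 5 within the day 7 range. By limma, 0 of 28 oxidative phosphorylation genes passed, with or without the 5 arrays (0 at an unadjusted p under 0.05), and 0 of 27 cytosolic ribosomal protein genes (0 at an unadjusted p under 0.05, 5 lower without the 5 arrays). Their medians were -0.14 and -0.18.

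**Figure D4:**
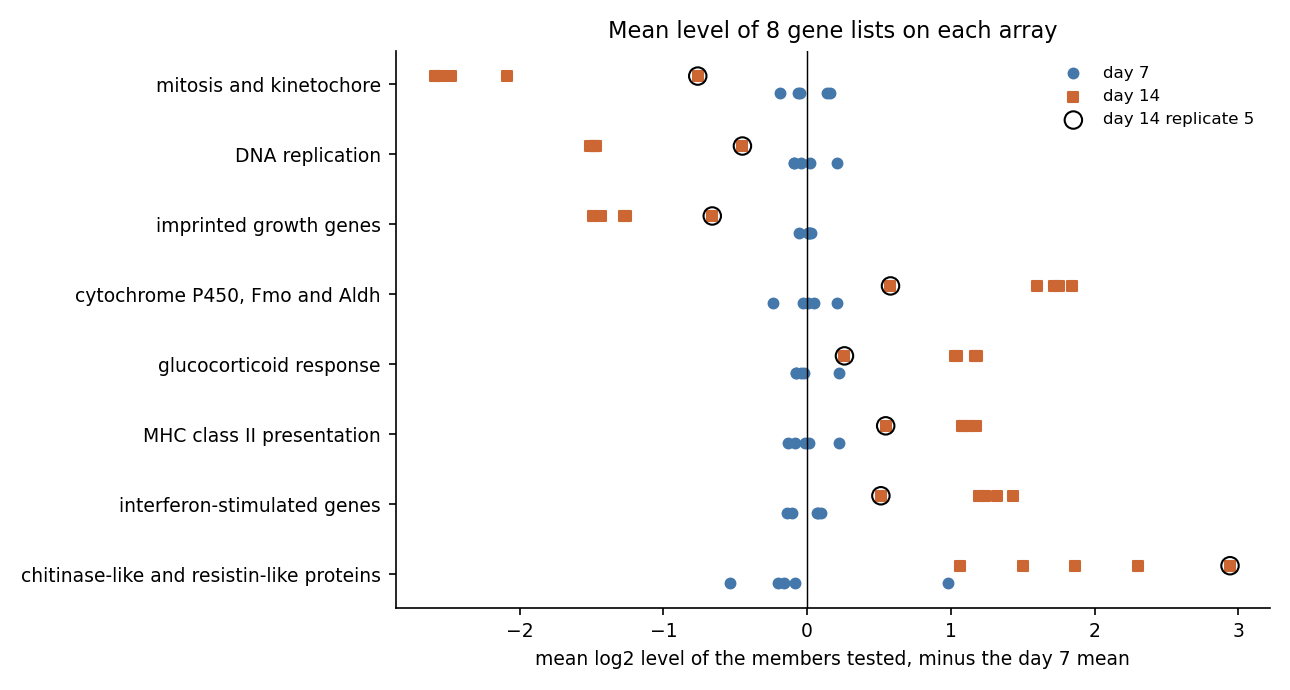
For 8 gene lists the mean log2 level of the tested members is plotted for each array, minus the day 7 mean (horizontal axis, log2 units), with circles for day 7, squares for day 14 and a ring around day 14 replicate 5. The ringed array lies between the ages in 7 lists and is the highest in the chitinase-like list, at a mean level of 3.43 before that subtraction.

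Genes of neighbouring tissues varied between single arrays. Of 16 adipocyte genes 4 rose and 0 fell (7 higher without the 5 arrays). Cfd, the complement protease adipsin of fat cells, stood at -1.84, -4.57, -5.39, -5.33 and -0.32 at day 7 and 2.27, -0.064, 3.62, 0.11 and 0.68 at day 14 (log2 4.81, SE 1.28, adjusted p = 0.0144). The mean of the 16 adipocyte genes was -0.387, -1.64, -1.88, -1.56 and 0.476 over the day 7 arrays and 0.866, -0.481, 1.17, -0.599 and 0.314 over the day 14 arrays. It was thus high where Cfd was high at day 7. Cfd is itself among these 16 genes, so part of this likeness is built in. The list's part in the Cfd difference was not tested. The Cfd call was lost without day 14 replicate 3 (4.24, adjusted p = 0.0526) and with the Xist level as a covariate (2.97, adjusted p = 0.127, without the 5 arrays). Adrb3, a receptor of fat cells, rose by 1.46 (adjusted p = 0.00352) without such scatter, from 0.68, 0.8, 0.63, 0.65 and 0.77 to 2.49, 2.6, 2.15, 2.34 and 1.23. The mean of 11 liver and plasma protein genes was 3.25 on day 7 replicate 2 and between -3.31 and -1.5 on the other day 7 arrays. Albumin, Alb, stood at -3.38, 5.19, -1.33, -3.28 and -2.13 at day 7 and -3.41, -3.33, -2.79, -3.41 and -3.02 at day 14. On that array Serpina3n, an acute phase protein of liver too, was also the highest of its age, and the part of liver RNA in its level was not tested. Without day 7 replicate 2 1454 genes were called.

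Of the sex-linked genes 0 of 4 passed the limma test (4 at an unadjusted p under 0.05). Xist, the transcript of the inactive X chromosome, cleared background on 0 day 7 arrays and on day 14 replicates 1, 3 and 4. Its levels were -7.81, -7.49, -7.62, -8.2 and -7.37 at day 7 and -1.53, -7.86, -1.83, -1.07 and -7.01 at day 14. The Y-linked Eif2s3y had 2.45, 2.52, 2.18, 1.88 and 1.28 and then -1.8, 1.69, -1.45, -1.41 and 2.12, high on the arrays without Xist. The day 7 group thus carries the male pattern throughout and the day 14 group both patterns. With the Xist level as a covariate, and without the 5 arrays, 4305 genes were called, among them 1730 of the 1840. The median of the adipocyte list was 0.46 with the covariate, in place of 1.24.

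The step from day 7 to day 14 was tested against the step before it, from day 4 to day 7. The change differed for 206 genes (1.3%), 144 with a more positive and 62 with a more negative change, and 201 of them were also called between days 7 and 14. Phactr3, a phosphatase regulator of neural tissues, held means of -3.37, -2.8, -2.59, -7.19 and -6.45 at days 1, 4, 7, 14 and 42. Its probe cleared background on 1 of the 5 day 14 arrays, and its step was more negative by -4.81 (SE 0.73, adjusted p = 0.00889). Its mean rose slightly up to day 7 and dropped by day 14. Slc10a6, a carrier of sulfated steroids, held -2.01, -0.79, -2.25, 0.64 and 1.4 (difference of steps 4.36, adjusted p = 0.00889), higher at day 4, lower at day 7 and higher again at day 14. This count rests on single arrays. It was 84, 216, 35, 90 and 171 without day 4 replicates 1 to 5, and 19, 11, 11, 8 and 164 without day 7 replicates 1 to 5. It was 37, 31, 95, 32 and 855 without day 14 replicates 1 to 5, and 1189 without the 5 arrays that stand apart. With the Xist level as a covariate and without those 5, limma called 0 genes, with 2927 at an unadjusted p under 0.05.

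Against the later step, from day 14 to day 42, the change differed for 181 genes (1.14%), of which 141 were also called between days 7 and 14. These steps differ in length, so sizes are per step. Over all genes the median difference of steps was 0.2 against the earlier and -0.031 against the later step. With each array scaled to its median these were 0.17 and -0.41, and without the 5 arrays that stand apart 0.039 and 0.034. Of those arrays, the ones of days 4 and 42 enter these differences through their age means. Zbtb16 held means of -1.7, -2.26, -2.1, 1.73 and 0.28, with its highest mean at day 14 (difference of steps 5.28, adjusted p = 0.000121). Slc25a37, the mitochondrial iron importer of erythroid cells, held 4.23, 4.46, 3.5, 4.14 and 2.19 (difference of steps 2.59, adjusted p = 0.000183). The mean level of 21 erythroid genes ran from 0.26 to 0.582 over the day 7 arrays and from 0.418 to 0.933 over those of day 14, and its part in the Slc25a37 step was not tested. Rsad2, an interferon-stimulated antiviral enzyme, held 1.4, 1.85, 1.22, 2.25 and -0.24 (difference of steps 3.52, adjusted p = 0.000183). The count was 87, 74, 94, 71 and 705 without day 14 replicates 1 to 5, and 1002 without the 5 arrays that stand apart.

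**Figure D5:**
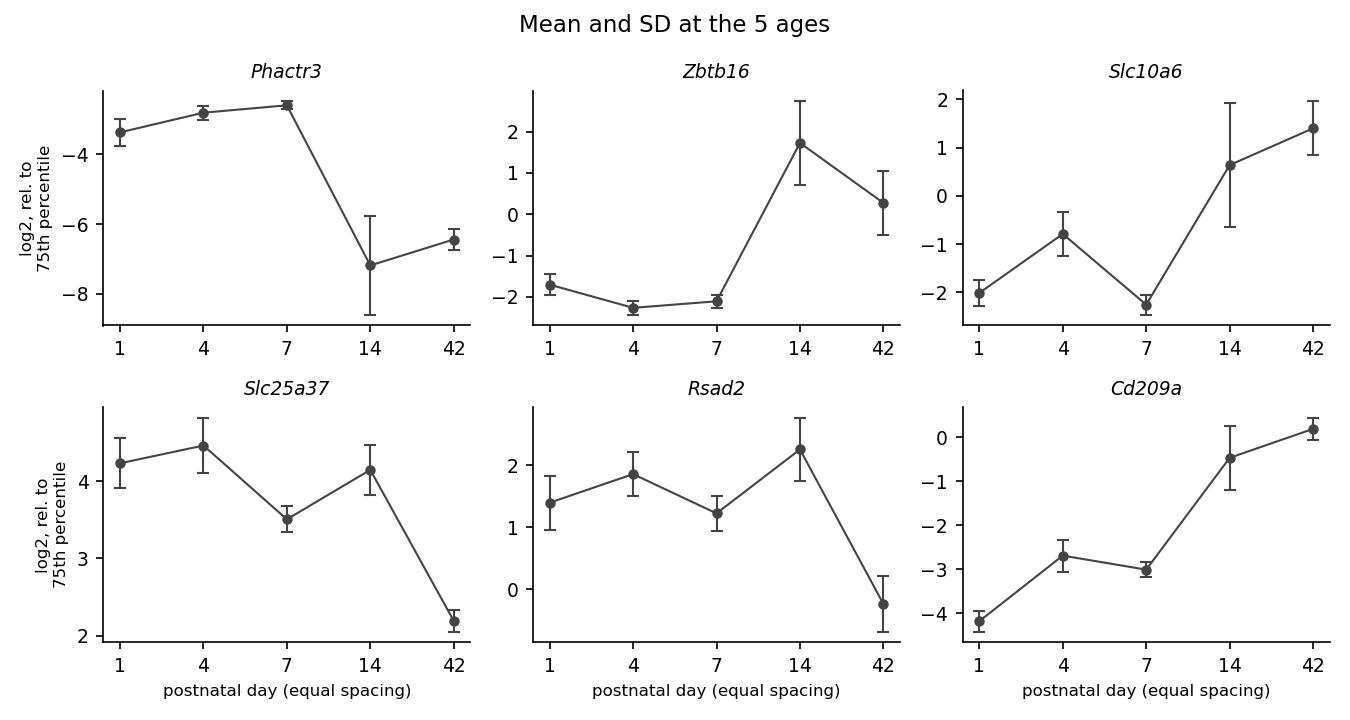
Points are the mean log2 level relative to the array's 75th percentile and bars the SD at each age (5 arrays, 4 at day 42), with ages spaced equally on the horizontal axis. Phactr3 drops between days 7 and 14, while Slc25a37 and Rsad2 rise from day 7 to 14 and are lowest at day 42.

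The spread within day 7 and day 14 was alike over all genes, with a median SD of 0.211 and 0.215, and that of day 14 was 0.167 without replicate 5. Without replicate 5 of day 14 alone, 2370 genes were called. Without it and the 5 arrays 7103 were called, among them 1839 of the 1840. In 611 of the 1840 genes (33.2%) replicate 5 lay apart from the other 4 day 14 arrays by a gap over 0.71 of the group's range, against 1212 (7.62%) of all tested genes. Day 7 replicate 5 lay apart from its own group in 1476 (9.28%) of all tested genes and in 100 (5.43%) of the called genes. Day 14 replicate 3 was unlike the other arrays in its signal, with 79.7% of spots well above background against 57.0% to 64.5% on the other 9. It carried the flag for some genes that were dim on the rest of its age: leaving it out, 28 called genes in place of 20 were well above background on 0 day 14 arrays.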

How the data were processed

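RNA of 24 whole lung samples was read on single-colour Agilent arrays. The deposited scanner files hold intensity values, the gProcessedSignal column. The software was Feature Extraction, which the file headers give as version 10.7.3.1 and the submitters' processing notes as 10.7.1.1. The files also hold a flag for spots well above background. The authors' deposited table holds log2 values of the same arrays, which correlated with the log2 processed signal at 0.9862 to 0.9999. Its scale is log2, its per-array shift is smooth, and its centring is not given in the sources used here, so it served as an alternative only. Control spots were left out and spots of a probe averaged. Values are log2 intensity minus each array's 75th percentile, whose intensity was 1028.94 to 1652.7 at day 7 and 995.543 to 1492.25 at day 14. Probes were named by matching their RefSeq identifiers to RefSeq genes, which named 25992 probes and left 29551 without a gene name. A gene is its probe of highest mean, tested if well above background on at least 4 of 24 arrays. limma 3.58.1 fitted 1 mean per age over 24 arrays and tested day 14 minus day 7, and this step against those before and after. The fit was checked on simulated data.

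The members and the 70 gene lists were chosen with earlier results of these data known. Named genes are the 12 largest changes in each direction with groups that did not overlap, the 6 largest bounds, the 6 smallest p-values, up to 5 called members of each list (2 where none was called), the 6 smallest p-values of each step contrast, and sex-linked genes. Alternatives changed the background, scaling, filter, probe rule, arrays, weights and blocks. Normexp was run on the median signal, a change made after the files were seen. Promoter sequences are from RefSeq (GRCm38.p6). The results of some single genes are not reported here. Probe sequences were not used here, so cross-hybridisation between near copies was not tested. For 1 day 14 sample the source name and title give different replicate numbers, and the title was followed.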

Additional observations from a re-analysis of the deposited data

Results flagged for a closer look

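Day 14 replicate 5 lay apart from its group, with a gap over 0.71 of the group's whole range, in 611 of the 1840 called genes. The threshold is set to mark about 1 in 20 groups by chance through any of the 5 arrays, so it gives no share for 1 named array. Over all tested genes day 14 replicate 5 lay apart in 1212 (7.62%). On the first principal component it lay at -10.68. Among the named falls its levels were 0.0268 for Lrrc15, -1.61 for Kcne1l, 1.72 for Egfem1, 1.18 for Zfp536, -0.867 for Adamts4, 1.48 for Etv4, 3.61 for Tenm4, 1.7 for Vcan and 0.439 for Pimreg. Among the named rises they were -2.25 for Serpina3n, 4.93 for Inmt, -3.65 for Slc13a4, 1.89 for Cxcl14, -1.34 for Mmp3 and 0.217 for Gm4956. All these values lay on the day 7 side of the other 4 arrays.

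Values of other arrays stood apart in the same way. Col25a1 was at -0.408 on day 7 replicate 5. The share of spots well above background was 79.7% on day 14 replicate 3. The mean level of the liver and plasma protein list was 3.25 on day 7 replicate 2, that of the neuron and glia list -0.945 on day 7 replicate 5, and that of the thymus and lymph node list -0.873 on day 14 replicate 3.

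The step from day 7 to day 14 differed from the step before it for 206 genes and from the step after it for 181, by a limma test of the difference itself. Against the earlier step the named differences were 4.04 for Hpcal4, 2.87 for Cd209a, -4.81 for Phactr3, 3.86 for Zp1 and 4.36 for Slc10a6. Against the later step they were 5.28 for Zbtb16, 3.41 for Olfr787, 3.96 for Apol11b, 3.52 for Rsad2 and 2.59 for Slc25a37. Hpcal4 and Zp1 cleared background on 0 day 7 arrays, so their fitted values rest on background signal at day 7 and are no measured size. Both counts move with single arrays.

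Probes that carry no gene name and are named by a genome region were not used in any gene list. Of 7866 such probes tested, 334 (4.25%) passed the same limma test, 208 higher and 126 lower at day 14. Of 7794 other unnamed probes 538 (6.9%) passed.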

How the results depend on the processing

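The number of genes called between days 7 and 14 was 2853 with quantile normalization and 3557 in the authors' deposited log2 table. It was 4930 with only these ages in the fit (4286 with slides as a block) and 9608 with array weights. Without the 5 arrays that stand apart it was 6124, and 7103 without these and day 14 replicate 5. The Xist level as a covariate was fitted only without the 5 arrays. That fit called 4305, to be read beside 6124. When 1 array of day 7 or day 14 was left out, the count lay between 1346 and 2370. In every comparison only arrays of the ages compared were left out singly. The effect of single arrays of other ages on the shared spread was thus not tried. The count lay within 1.5 times of 1840 under normexp (1553), median scaling (1305), no filter (1689), a stricter filter (1504), probe means (1898) and slides as a block (1750). Against the earlier step the count was 128 with normexp, 64 with median scaling, 502 with quantile normalization, 890 in the authors' table, 125 without a filter, 541 with only the ages compared (617 with slides as a block), 1189 without the 5 arrays, 3253 without these and day 14 replicate 5, 7839 with array weights, and 8 to 855 when 1 array was left out. With the Xist covariate, also without the 5 arrays, limma called 0, with 2927 at an unadjusted p under 0.05. Against the later step the count was 109 with median scaling, 429 with quantile normalization and 669 in the authors' table. It was 96 and 92 with only the ages compared, without and with slides as a block, and 5796 with array weights. Without the 5 arrays it was 1002, and 3114 without these and day 14 replicate 5. With the Xist covariate, also without the 5 arrays, it was 894. It lay between 71 and 705 when 1 array was left out. Where a setting changes which arrays or genes enter, that is its construction, and otherwise the cause was not tested. Of 254 named genes 239 passed the test, and of these 1 changed sign, Trim71, at 0.31 with the mean of its probes. Sign changes among the other named genes were not counted. Of the 239 past the test 80 missed it under some alternative, 43 with median scaling and 30 with normexp. When 1 array was left out, at least 1 such omission ended the calls of Acta2, Adh1, Cd8b1, Cfd, Ckmt2, Col5a1, Cr2, Ezh2, H2-Ab1, Igfbp4, Jchain, Ncapg, Oas3, Ptprb, Scgb1a1, Scnn1a, Sftpa1 and Slc25a37. Median scaling also ended those of Chia1, Cyp26b1, Hopx and Siglecf, and normexp those of Brip1, Mcpt8 and Orc1.

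The labels do not say that the replicate numbers pair the samples, and the main fit took the samples as unpaired. The deviations of day 7 and day 14 arrays of the same number correlated at -0.00768, -0.00386, -0.0571, 0.217 and 0.172. Only for day 7 replicate 4 was the day 14 array of the same number the best correlated. With the replicate block 1717 genes were called between the ages, 98 against the earlier step and 220 against the later. The number of arrays limits the precision of all values, and genes not well above background at an age have only a bound there. On simulated data at this size, 32% of 2-fold and 87% of 4-fold changes were recovered. There 100 genes of 15898 were changed by each amount, with noise drawn independently for each gene and array. The shares hold for that setting only.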
